A study of Mus musculus with 16 samples.

Results

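The Gimap genes encode GTPases of immunity-associated proteins, and the 8 genes named *Gimap1*, *Gimap3*, *Gimap4*, *Gimap5*, *Gimap6*, *Gimap7*, *Gimap8* and *Gimap9* were picked by symbol from the 54347 genes of the count table. All 8 were measured. They were followed in LSKs (Lin-Sca-1+c-Kit+ cells, which include hematopoietic stem cells and multipotent progenitors) and GMPs (Lin-Sca-1-c-Kit+Cd16/32+ granulocyte-monocyte progenitors) of URE and WT mice, with 4 libraries in each of the 4 groups. URE mice lack the upstream regulatory element of *Spi1*, the gene of the transcription factor PU.1, in all cells of the body, and were preleukemic. WT mice were their littermates, and both genotypes were C57BL/6 animals of 8 to 12 weeks. Bone marrow was enriched for c-Kit with beads, and cells carrying lineage markers (among them Cd45r, Cd3, Cd4, Cd8, Ter119 and Gr1) were left out in sorting, so that mature lymphocytes were gated against. The comparisons ask how the level of each member depends on the URE and on the step from LSK to GMP.

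Gimap proteins are membrane-associated GTP-binding proteins of vertebrates, known above all from lymphocytes, where several members are needed for survival and for steady cell numbers. Loss of *Gimap5* in rodents causes lymphopenia and also disturbs hematopoietic stem cells. Some members have been tied to proteins of the Bcl2 family and others to autophagy and lysosomes, and their catalytic mechanism is thought to involve pairing of GTPase domains between members.

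In GRCm38 (GENCODE M21) the 8 members lie in a single cluster of 123618 bp at chr6:48647234-48770851, in the order *Gimap8*, *Gimap9*, *Gimap4*, *Gimap6*, *Gimap7*, *Gimap1*, *Gimap5*, *Gimap3*, and thus share a locus. *Gimap8* (ENSMUSG00000064262, chr6:48647234-48660875) encodes the largest protein of the family, with several GTPase domains. *Gimap9* (ENSMUSG00000051124, chr6:48676129-48679114) is among the less studied members. *Gimap4* (ENSMUSG00000054435, chr6:48684549-48692060) is best known from T cells, where it affects the course of cell death. *Gimap6* (ENSMUSG00000047867, chr6:48701582-48708225) binds the Atg8 protein Gabarapl2 and acts in autophagy. *Gimap7* (ENSMUSG00000043931, chr6:48718621-48724636) encodes a small cytosolic GTPase. *Gimap1* (ENSMUSG00000090019, chr6:48739054-48743795) is required for mature lymphocytes to persist. *Gimap5* (ENSMUSG00000043505, chr6:48746197-48754210) encodes a lysosomal membrane protein, and *Gimap3* (ENSMUSG00000039264, chr6:48764464-48770851) is its nearest relative. *Gimap6* and *Gimap3* are read from the minus strand and the other 6 from the plus strand.

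Reads of some members cannot be fully told apart from those of other genes. *Gimap1* shares 1107 of its 3073 exonic bases with the antisense transcript *Gimap1os*, and the libraries were unstranded. The annotated gene *Gm28053* shares 198 exonic bases with *Gimap1*, 153 with *Gimap5* and 81 with *Gimap7*. Of the words of 31 bases in the transcripts of *Gimap3*, 13.2% also occur in *Gimap5*, and 8.02% of those of *Gimap5* occur in *Gimap3*. *Gimap4* and *Gimap9* share no word of this length with any other annotated gene, so their counts do not carry this uncertainty.

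Promoter sequences are shown for the 4 members that the results turn on or that have the highest level per length in LSKs. They were taken from RefSeq (GRCm38.p6), which holds an entry for each of the 8 members (9 entries, since *Gimap8* has 2 starts), and run from 250 bases before to 50 bases after the annotated start on the strand of the gene. Capitals mark matches to GGAAGT, the core word of ETS factors such as PU.1, to GAGGAAGT, a longer word of PU.1 type that contains GGAAGT, or to TGTGGT, the core word of RUNX factors, each searched on both strands. The *Gimap9* window is chr6:48675885-48676184 (plus strand), the *Gimap4* window chr6:48684328-48684627 (plus strand), the *Gimap6* window chr6:48708195-48708494 (minus strand) and the *Gimap1* window chr6:48738797-48739096 (plus strand).
Gimap9: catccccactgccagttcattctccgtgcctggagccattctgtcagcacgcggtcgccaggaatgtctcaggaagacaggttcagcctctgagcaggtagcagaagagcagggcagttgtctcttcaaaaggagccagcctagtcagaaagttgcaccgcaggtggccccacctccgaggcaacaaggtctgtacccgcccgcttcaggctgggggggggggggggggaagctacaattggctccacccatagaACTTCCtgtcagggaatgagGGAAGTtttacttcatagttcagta
Gimap4: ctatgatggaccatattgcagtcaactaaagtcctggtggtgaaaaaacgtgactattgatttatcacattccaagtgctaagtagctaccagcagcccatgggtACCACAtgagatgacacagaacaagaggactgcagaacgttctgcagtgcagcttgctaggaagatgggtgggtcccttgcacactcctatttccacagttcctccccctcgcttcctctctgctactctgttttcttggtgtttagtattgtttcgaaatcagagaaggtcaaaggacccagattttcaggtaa
Gimap6: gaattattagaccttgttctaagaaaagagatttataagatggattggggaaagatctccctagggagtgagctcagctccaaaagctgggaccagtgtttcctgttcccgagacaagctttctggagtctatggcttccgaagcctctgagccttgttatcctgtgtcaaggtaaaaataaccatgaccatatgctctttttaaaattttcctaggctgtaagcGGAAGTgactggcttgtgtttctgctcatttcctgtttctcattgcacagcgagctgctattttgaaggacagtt
Gimap1: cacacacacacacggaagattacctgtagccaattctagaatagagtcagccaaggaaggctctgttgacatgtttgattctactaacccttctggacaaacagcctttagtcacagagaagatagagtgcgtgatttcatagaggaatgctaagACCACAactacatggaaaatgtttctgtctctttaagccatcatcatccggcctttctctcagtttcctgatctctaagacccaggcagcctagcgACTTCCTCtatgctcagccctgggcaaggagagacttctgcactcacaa

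GGAAGT was found in the windows of 4 members (*Gimap1*, *Gimap5*, *Gimap6* and *Gimap9*) and in 23.8% of all 32851 promoter windows of the same length. In *Gimap9* it stood at positions 6 and 26 after the start, in *Gimap6* at 25 bases before it, and in *Gimap1* at position 2, where it was part of GAGGAAGT, a word held by 3.2% of all windows. TGTGGT was found in *Gimap1*, *Gimap4* and *Gimap7*, and in 16.8% of all windows. The *Gimap3* and *Gimap8* windows held none of these letters. These matches describe the sequence only.

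Total counts per library ranged from 20028302 to 29128858, and levels are given as CPM, counts scaled to the TMM-normalised library size. *Spi1* was lower in URE than in WT libraries throughout, with 1.16 to 4.48 CPM in URE LSKs against 69.6 to 165 in WT LSKs and 15.2 to 27.5 in URE GMPs against 87.6 to 180 in WT GMPs, so the labels hold for the targeted gene. The gates held for their defining genes: markers of GMPs were higher in GMPs (8 of 9 tested in WT, 9 of 9 in URE) and 10 (WT) and 11 (URE) of 15 stem cell markers were lower there. The URE LSK library of replicate 2 stands apart for several members, as given below. The edgeR fold changes that it moved by more than 1.5-fold are stated with and without it. This holds for members that passed the filter on low counts without it.

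The makeup of the family was compared on a scale of CPM per kilobase of exonic length, which allows levels of different genes to be set side by side. In WT LSKs *Gimap6* had the highest level at 149 ± 34.0 CPM per kb (SD, n = 4), followed by *Gimap1* at 91.5 ± 16.5, *Gimap9* at 43.3 ± 9.36 and *Gimap5* at 17.2 ± 2.71. The remaining members, *Gimap7*, *Gimap8*, *Gimap4* and *Gimap3*, each had a mean under 10 CPM per kb. In WT GMPs the order was another, with *Gimap9* first at 24.0 ± 4.80 CPM per kb, *Gimap6* at 16.1 ± 2.08 and *Gimap1* at 11.6 ± 2.58. *Gimap9* made up 13.4% ± 0.85 of the summed level per kb in WT LSKs and 44.2% ± 1.73 in WT GMPs. In URE mice its share was 17.5% ± 1.81 in LSKs and 56.9% ± 9.11 in GMPs, where it ranged from 44.9% to 65.4% and its lowest value lay within the range of WT GMPs (42.0% to 46.2%).

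**Figure D1:**
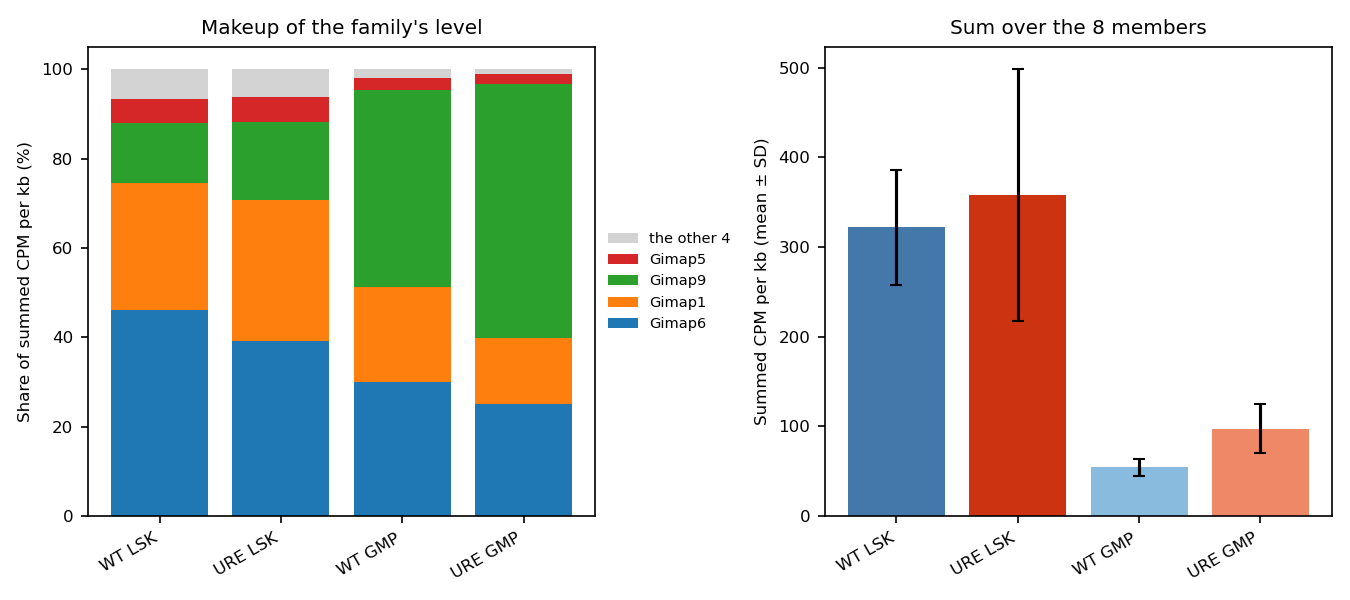
Left, mean share (%) of each Gimap gene in the summed CPM per kb of the 8 members in each group, with the 4 lowest members pooled. Right, mean of that sum with SD as error bars (n = 4). *Gimap9* takes 13.4% in WT LSKs and 44.2% in WT GMPs, and 17.5% in URE LSKs and 56.9% in URE GMPs. The sum is 322 CPM per kb in WT LSKs and 54.2 in WT GMPs, and 358 in URE LSKs and 97.4 in URE GMPs.

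All 8 members were lower in GMPs than in LSKs of WT mice, and for none of them did the groups overlap. Of the 15935 genes that passed the filter on low counts over the 4 groups, 17.8% were lower in WT GMPs without overlap. Over all 14767 genes tested in this comparison, 15.8% were called lower in GMPs and 11.5% higher, where a call needs an adjusted p under 0.05 (edgeR quasi-likelihood test, Benjamini-Hochberg adjustment over all genes) and a fold change above 1.5. The median log2 fold change was -3.61 over the members and -0.09 over all genes. For each member the exact two-sided permutation test gave p = 0.0286, the smallest that 4 against 4 libraries allow. In bulk libraries a lower share of expressing cells and less RNA per cell cannot be told apart.

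*Gimap6*, the autophagy-linked member, had 454, 534, 681 and 410 CPM in the WT LSK libraries of replicates 1 to 4 and 47.9, 60.9, 63.9 and 53.1 in WT GMPs. Every LSK library was thus far above every GMP library, a difference of 9.18-fold (log2 fold change -3.20 ± 0.20, SE, adjusted p = 2.37e-05). *Gimap1* and *Gimap5* went the same way: *Gimap1* was 7.92-fold lower in GMPs (log2 -2.99 ± 0.21, adjusted p = 3.82e-05) and *Gimap5* 12.3-fold lower (log2 -3.62 ± 0.21, adjusted p = 1.87e-05).

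Among the members with low levels *Gimap3*, *Gimap4* and *Gimap8* had the largest fitted differences. *Gimap3* had 141 to 205 counts in each WT LSK library and 2, 0, 0 and 8 in WT GMPs, and *Gimap4* had 173 to 308 counts in WT LSKs and 5, 1, 0 and 9 in WT GMPs. Both were thus near the limit of detection in GMPs, and their log2 fold changes of -5.55 ± 0.85 (adjusted p = 0.0016) and -5.43 ± 0.74 (adjusted p = 9.12e-04) rest on few counts on that side. Without WT GMP replicate 4 they were -7.39 and -6.39. *Gimap8* fell by 5.30 ± 0.52 on the log2 scale (adjusted p = 1.82e-04), from 19.2 ± 7.48 CPM in WT LSKs to 0.479 ± 0.282 CPM in WT GMPs. *Gimap7*, also at a low level, fell by 3.60 ± 0.41 (adjusted p = 3.59e-04), close to the value of *Gimap5*.

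*Gimap9* had the smallest difference of the 8. It had 55.9, 83.1, 85.5 and 59.8 CPM in WT LSKs and 30.1, 45.0, 46.9 and 36.0 CPM in WT GMPs. The highest GMP library lay below the lowest LSK library, but the gap was small. The difference was 1.80-fold (log2 fold change -0.85 ± 0.22, adjusted p = 0.0185). This call was lost, with adjusted p between 0.0528 and 0.0561, when WT GMP replicate 1, 2 or 4 or WT LSK replicate 2 was left out.

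**Figure D2:**
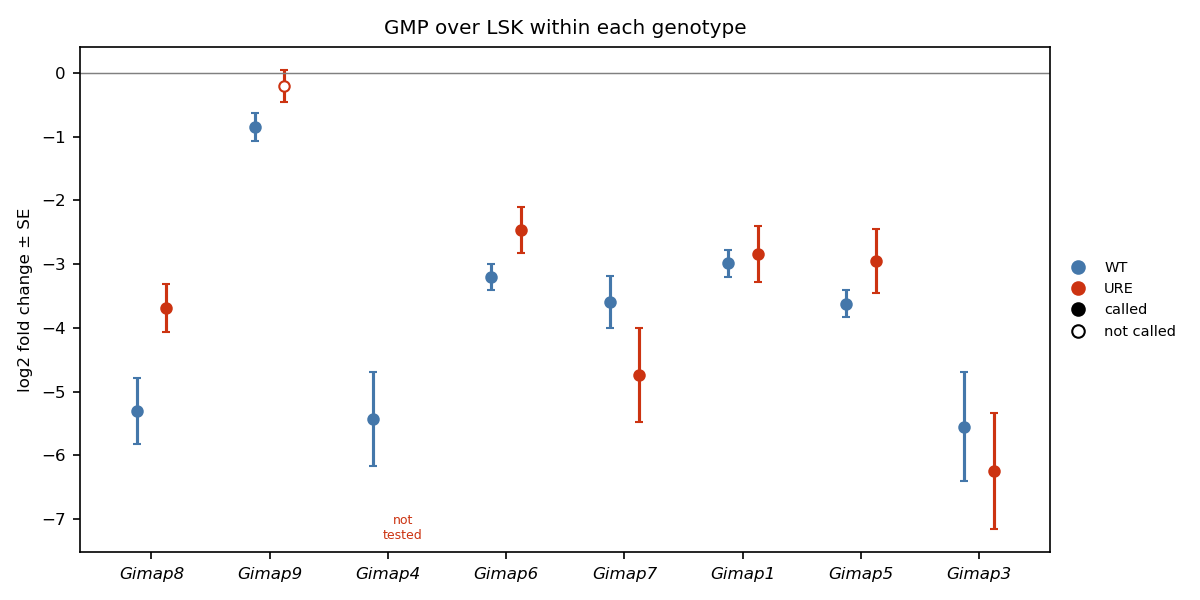
Log2 fold change (± SE) of GMP over LSK for each Gimap gene, in chromosomal order, in WT (blue) and URE (red) mice, with filled points for called genes. In WT all 8 are called lower; in URE 6 are, while *Gimap9* sits near 0 and *Gimap4* was not tested.

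In URE mice *Gimap1*, *Gimap3*, *Gimap5*, *Gimap6*, *Gimap7* and *Gimap8* were lower in GMPs than in LSKs. These were 6 of the 7 members tested, against 12.6% of all 14395 genes called lower in URE GMPs and 9.2% called higher. In 7 of the 8 members every URE GMP library lay below every URE LSK library, against 14.9% of 15935 genes. The median log2 fold change was -2.95 over the tested members and -0.09 over all genes. The changes ranged from -2.46 ± 0.36 for *Gimap6* (adjusted p = 0.00163) to -6.25 ± 0.92 for *Gimap3* (adjusted p = 0.00158), which had 1 to 8 counts in each URE GMP library. Without URE LSK replicate 2 the same 6 were called lower, with *Gimap3* at -4.99 and *Gimap7* at -3.86 instead of -4.74. *Gimap4* did not pass the filter on low counts in this comparison, with 7 to 368 counts in URE LSKs and 2 to 5 in URE GMPs. Its groups did not overlap (exact two-sided permutation p = 0.0286, the smallest possible). *Gimap4* was called lower with no filter (-4.35, adjusted p = 0.0232) and in a joint fit of all 16 libraries (-4.31, adjusted p = 0.0113), but not in replicates 2 and 3 alone (adjusted p = 0.0795) or when any URE GMP library was left out (adjusted p = 0.0699 to 0.103). Without URE LSK replicate 4 it was called lower (-4.67, adjusted p = 0.0278). All of these *Gimap4* fits include URE LSK replicate 2, which had 12.3 CPM against 0.30 to 0.682 in the other URE LSKs. URE GMPs had 0.0963 to 0.251 CPM. Without URE LSK replicate 2 *Gimap4* again did not pass the filter, so no fold is given for that setting.

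*Gimap9* was the member not called. It had 83.3, 166, 84.9 and 75.4 CPM in URE LSKs and 88.6, 84.0, 100.04 and 79.5 CPM in URE GMPs. Apart from URE LSK replicate 2, the ranges overlapped, and the GMP library was the higher in 3 of 4 same-numbered pairs. The log2 fold change of GMP over LSK was -0.20 ± 0.25 (adjusted p = 0.612) and 0.16 ± 0.16 without URE LSK replicate 2.

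**Figure D3:**
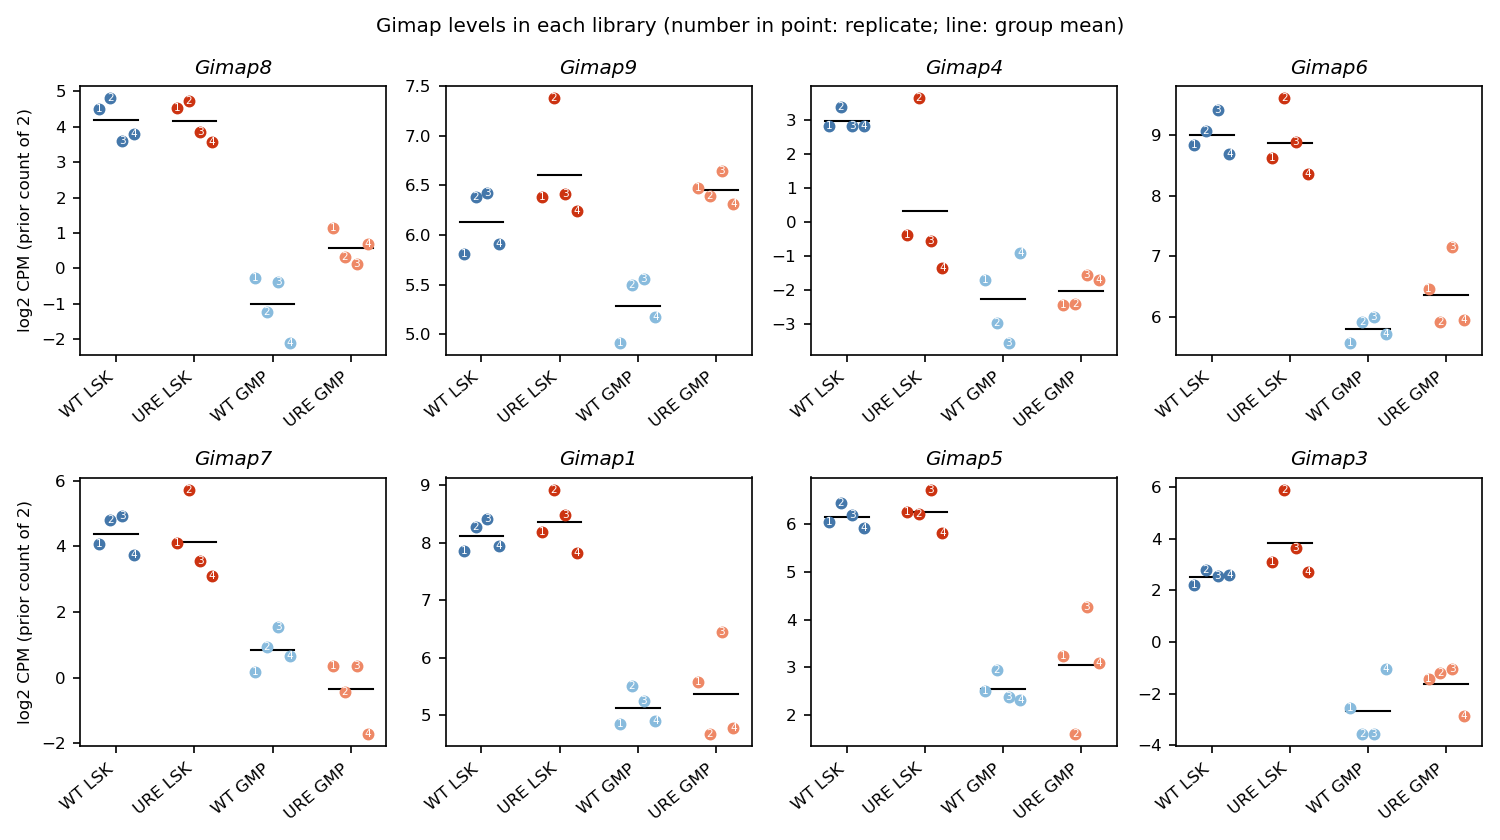
Level of each Gimap gene in each library as log2 CPM with a prior count of 2, by group; the number in each point is the replicate and the line is the group mean. Every LSK library lies above every GMP library for 8 genes in WT and 7 in URE (17.8% and 14.9% of all genes do so), *Gimap9* is higher in URE than in WT GMPs, and URE LSK replicate 2 stands above the other URE LSKs for *Gimap3*, *Gimap4* and *Gimap9*.

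URE and WT GMPs were then compared directly. Of 6 members tested, 1 was called and was higher in URE GMPs, against 4.67% of all 13829 genes called higher and 3.63% called lower. The median log2 fold change was 0.74 over the 6 tested members, or 0.27 without URE GMP replicate 3, and 0.01 over all genes. *Gimap3* and *Gimap4* did not pass the filter on low counts, with at most 9 counts in any GMP library.

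The called member was *Gimap9*, with 79.5 to 100.04 CPM in URE GMPs and 30.1 to 46.9 CPM in WT GMPs (each library is given above). Every URE library lay above every WT library, as in 6.96% of 15935 genes. *Gimap9* was 2.26-fold higher in URE GMPs (log2 fold change 1.18 ± 0.19, adjusted p = 0.00587) and higher in 4 of 4 same-numbered pairs. The log2 fold change stayed between 1.06 and 1.28 when any library was left out, and each time *Gimap9* was called. Within replicates 1 and 4 it was 1.33 (adjusted p = 0.0144), and within replicates 2 and 3 it was 1.04 (adjusted p = 0.149).

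*Gimap8* was also higher in every URE GMP library, at a low level. It had 2.12, 1.15, 1.005 and 1.53 CPM in URE GMPs and 0.747, 0.343, 0.677 and 0.149 CPM in WT GMPs, which are 20 to 44 against 3 to 17 counts. The groups did not overlap (exact two-sided permutation p = 0.0286, the smallest possible). The log2 fold change was 1.60 ± 0.51 with an adjusted p of 0.0978, so *Gimap8* was not called. With the replicate number as a block it was 1.68 (adjusted p = 0.0479), and it was called.

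The other 4 tested members were not called in GMPs. *Gimap6* had 88.2, 60.4, 142 and 61.8 CPM in URE GMPs, against 47.9 to 63.9 in WT, so that replicates 1 and 3 lay above the WT range and the rest within it. Its log2 fold change was 0.67 ± 0.29 (adjusted p = 0.236), and 0.30 without replicate 3. *Gimap5* (0.81 ± 0.48, adjusted p = 0.408) and *Gimap1* (0.43 ± 0.40, adjusted p = 0.634) had their highest URE values in replicate 3 as well, and without it the values were 0.23 for *Gimap5* and -0.10 for *Gimap1*. *Gimap7* had a log2 fold change of -1.12 ± 0.54 (adjusted p = 0.295) on 4 to 59 counts.

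Other measures moved with genotype in the same GMPs. Markers of monocytes were lower in URE GMPs (6 of 8 tested) and summed to 84.2 to 689.5 CPM, against 1689 to 2226 in WT GMPs. Markers of neutrophils were higher (3 of 7), among them *Lcn2* (log2 fold change 3.80, adjusted p = 3.96e-04), and summed to 245 to 995 CPM against 45.6 to 148. Of the T cell markers 2 of 7 tested were higher, among them *Cd247* (2.41, adjusted p = 0.00936). The summed T cell marker level was 35.3 to 112 CPM in URE GMPs and 34.8 to 46.6 in WT GMPs, with *Lat* as the largest part. Of the tested markers *Cd4* (-1.06, adjusted p = 0.487) and *Thy1* (-1.32, adjusted p = 0.31) went lower and were not called. The T cell genes *Cd3d*, *Cd3e*, *Cd3g*, *Trac*, *Cd8a*, *Cd8b1* and *Cd2* summed to few counts. These were 12, 3, 23 and 7 in URE GMP replicates 1 to 4 and 4, 14, 2 and 3 in WT GMPs. Of the NK cell markers 2 of 4 tested were higher, *Prf1* (log2 fold change 2.497, adjusted p = 0.0146) and *Nkg7* (1.07, adjusted p = 0.0169). The summed level of this list was nearly all *Nkg7* (a mean of 1671 CPM in URE GMPs and 803 in WT GMPs), and *Klrk1*, the next in level, had a log2 fold change of -1.58 (adjusted p = 0.231). B cell markers were lower in 3 of 5 tested (*Cd79b*, *Ighm* and *Blnk*). *Vpreb1* (1.01, adjusted p = 0.0911) and *Igll1* (0.43, adjusted p = 0.69) went higher and were not called. The list summed to 70.2 to 182 CPM against 398 to 512, most of which was *Ighm* (a mean of 93.8 against 366). Endothelial markers were higher in 2 of 7 tested, *Pecam1* (0.98, adjusted p = 0.0126) and *Flt1* (1.45, adjusted p = 0.0157). *Emcn* (-2.22, adjusted p = 0.0782), *Esam* (-0.96, adjusted p = 0.176), *Vwf* (-0.89, adjusted p = 0.343) and *Tie1* (-0.28, adjusted p = 0.912) went lower and were not called. *Stab2* (0.16, adjusted p = 0.925) was not called either, and the median over the 7 was -0.28. Endothelial markers summed to 259 to 437 CPM against 151 to 258, most of which was *Pecam1* (a mean of 301 against 155). Of the stem cell markers 2 of 14 tested were lower, *Tek* (-4.89, adjusted p = 0.00122) and *Cd34* (-1.80, adjusted p = 2.83e-04), while the median over the 14 was 0.01. The part of these shifts in the *Gimap9* result was not tested.

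**Figure D4:**
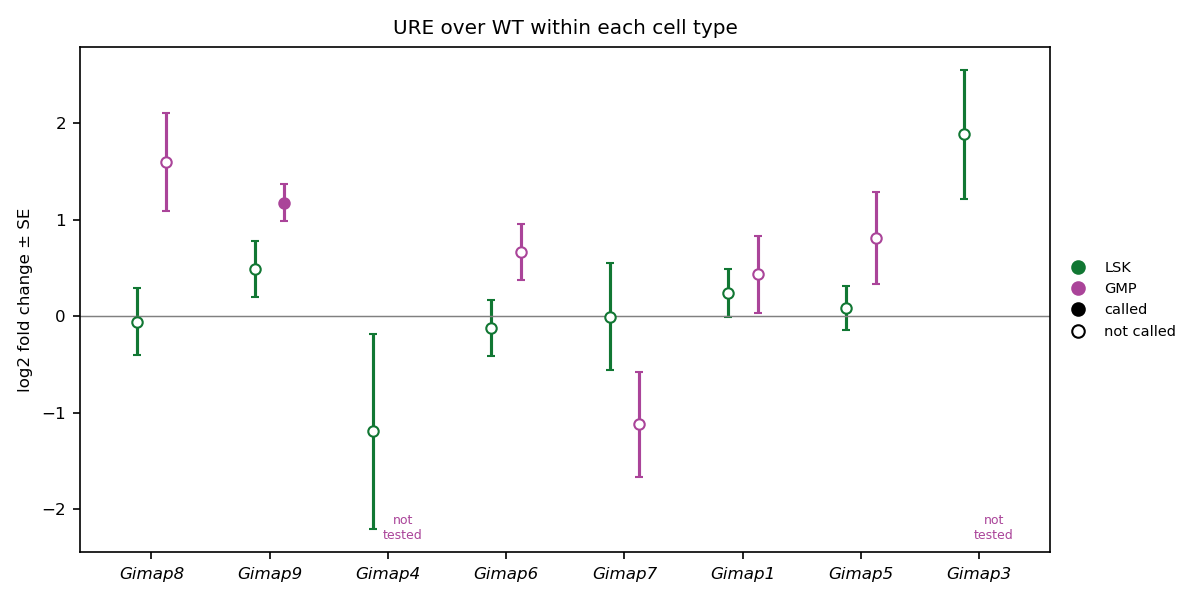
Log2 fold change (± SE) of URE over WT for each Gimap gene in LSKs (green) and GMPs (purple), with filled points for called genes. *Gimap9* in GMPs (1.18) is the only call; *Gimap8* in GMPs (1.60) and *Gimap3* in LSKs (1.88) lie higher but with wider errors.

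In LSKs none of the 8 members was called between URE and WT by edgeR, where 2.38% of 15154 genes were called higher in URE LSKs and 3.76% lower. At an unadjusted p under 0.05 there was 1 member, *Gimap3*, and DESeq2 called the same member. The median log2 fold change was 0.04 over the members and 0.00 over all genes. The 2 best expressed members were close to WT, with *Gimap6* at 491.5 ± 198 CPM in URE LSKs and 519.7 ± 119 in WT LSKs (log2 fold change -0.12 ± 0.29) and *Gimap1* at 340.2 ± 110.1 and 281 ± 50.7 (0.24 ± 0.25). *Gimap5*, *Gimap7* and *Gimap8* had log2 fold changes between -0.05 and 0.09, and *Gimap9* had 0.49 ± 0.29 (adjusted p = 0.523). Without URE LSK replicate 2 *Gimap7* was at -0.85 (adjusted p = 0.309) and *Gimap9* at 0.17 (adjusted p = 0.777).

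*Gimap4* had 7.001, 10.3, 7.005 and 6.93 CPM in WT LSKs and 0.682, 12.3, 0.583 and 0.30 CPM in URE LSKs. In counts this was 215, 308, 176 and 173 in WT and 17, 368, 14 and 7 in URE. URE replicates 1, 3 and 4 thus lay far below every WT library, whereas URE replicate 2 lay above all of them, and the groups overlapped. Over all libraries the log2 fold change was -1.19 ± 1.01 (adjusted p = 0.738, exact two-sided permutation p = 0.143), and *Gimap4* was not called. Without URE LSK replicate 2 it was -3.91 ± 0.42 (adjusted p = 0.00194), and *Gimap4* was called lower in URE. With the replicate number as a block and all libraries it was -2.79 (adjusted p = 0.0701).

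*Gimap3* showed the opposite picture, with 4.59, 6.89, 5.77 and 5.93 CPM in WT LSKs and 8.58, 59.7, 12.6 and 6.47 CPM in URE LSKs. The URE value was the higher in 4 of 4 same-numbered pairs, and URE replicate 2 was far above all others. The groups overlapped, since URE replicate 4 lay below WT replicate 2. The log2 fold change was 1.88 ± 0.67 (adjusted p = 0.177, exact two-sided permutation p = 0.0571) and 0.66 without URE LSK replicate 2 (adjusted p = 0.383). With the replicate number as a block and all libraries it was 1.26 ± 0.46 (adjusted p = 0.148). In URE replicates 1, 3 and 4 *Gimap3* was thus within or above the WT range where *Gimap4* was below it, and both were at their highest in URE replicate 2.

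**Figure D5:**
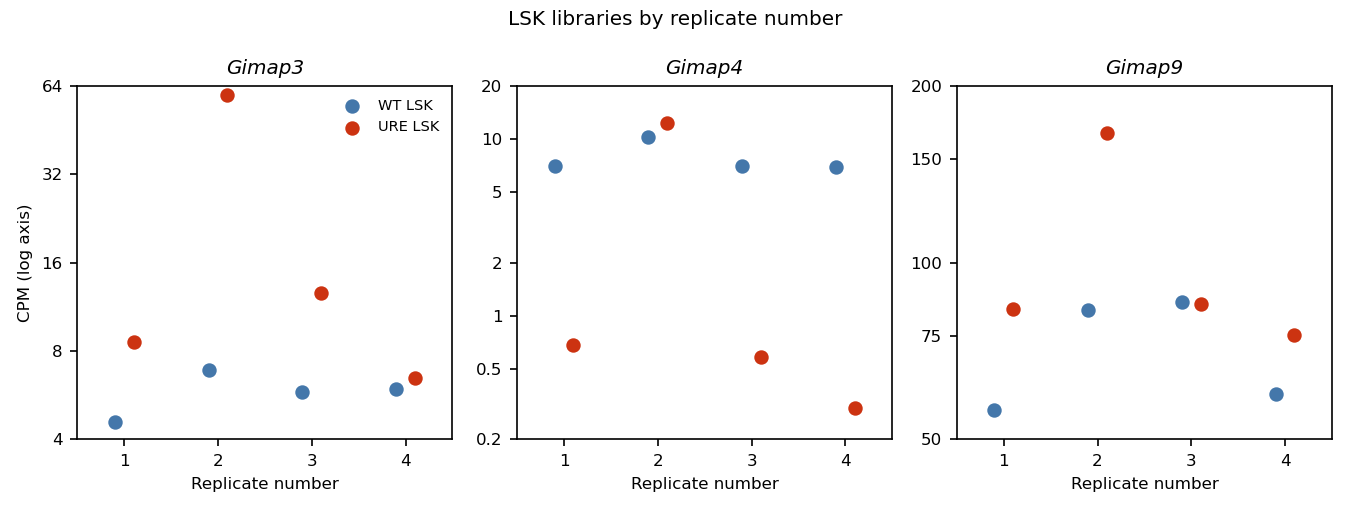
CPM (log axis) of *Gimap3*, *Gimap4* and *Gimap9* in WT (blue) and URE (red) LSK libraries by replicate number. *Gimap4* is at 0.30 to 0.682 CPM in URE replicates 1, 3 and 4 and at 12.3 in replicate 2, where *Gimap3* (59.7) and *Gimap9* (166) also peak.

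URE LSK replicate 2 had the highest URE LSK value for every member except *Gimap5*. *Gimap7* was at 52.9 CPM there and at 8.52 to 17.2 in the other URE LSKs. Cells with Cd3, Cd4 or Cd8 on their surface had been gated against in sorting. The T cell genes *Cd3d*, *Cd3e*, *Cd3g*, *Trac*, *Cd8a*, *Cd8b1* and *Cd2* summed to 9 counts in this library and to 5, 20 and 5 counts in URE replicates 1, 3 and 4, while *Gimap3* and *Gimap4* had 1785 and 368 counts in it. The full list of T cell markers summed to 229 CPM there and to 189 to 223 in the other URE LSKs. B cell markers, most of them *Ighm* counts, summed to 1306 CPM, against 214 to 1029 in the other URE LSKs. Other lists with their highest URE LSK sum in this library were NK cell markers (361 CPM against 223 to 288), neutrophil markers (363 against 182 to 316), monocyte markers (22.3 against 11.4 to 19.955), GMP markers (1528 against 721 to 1136), early lymphoid genes (1014 against 624 to 929), the Atg8 family with its conjugation enzymes (1513 against 1206 to 1270.5) and interferon-inducible GTPases (2375 against 1566 to 1939). Lists with their lowest sum there were erythroid and megakaryocyte markers (72.3 against 164 to 743), endothelial markers (196 against 238 to 309) and stem cell markers (3332 against 3379 to 4401). It was the deepest library, with 29128858 counts. The part of other cell types or of depth in its Gimap values was not tested. For 2.03% of 15935 genes this library stood apart from the rest of its group by Dixon's criterion, and this share ranged from 0.766% to 4.26% over all 16 libraries.

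The genotype effects in GMPs and LSKs were compared by an interaction term over all 16 libraries. With edgeR none of the 8 members was called, against 0.866% of 15935 genes called as more positive in GMPs and 0.351% as more negative. There was 1 member at an unadjusted p under 0.05, and DESeq2 called none. That member was *Gimap8*, whose effect was larger in GMPs by 1.65 ± 0.60 on the log2 scale in the edgeR fit (adjusted p = 0.242). *Gimap6* (0.75 ± 0.41, adjusted p = 0.531) and *Gimap9* (0.66 ± 0.35, adjusted p = 0.502) had the same sign, as had *Gimap1*, *Gimap4* and *Gimap5*. *Gimap7* (-1.14 ± 0.80, adjusted p = 0.697) and *Gimap3* (-0.70 ± 1.38, adjusted p = 0.959) had the opposite sign. Without URE LSK replicate 2 *Gimap9* was at 1.005 (adjusted p = 0.101) and *Gimap4* at 3.84 instead of 1.11 (adjusted p = 0.101). *Gimap7* was then at -0.27 and *Gimap3* at 0.55, and again none was called. With the replicate block and without URE LSK replicate 2, a setting chosen after the data had been seen, *Gimap9* (0.96, adjusted p = 0.013) and *Gimap6* (1.02, adjusted p = 0.0305) were called.

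Over the 16 libraries Pearson's r of log2 CPM between pairs of members ranged from 0.37 (*Gimap4* with *Gimap9*) to 0.99 (*Gimap1* with *Gimap6*), with a median of 0.86 over 28 pairs. These values are descriptions, since the libraries fall into 4 groups and both genes of a pair are read from the same libraries. With group means removed the median was 0.45, and without URE LSK replicate 2 it was 0.18. The value with group means removed was the higher one for *Gimap3* with *Gimap4* and for *Gimap9* with *Gimap1*, *Gimap4*, *Gimap6* and *Gimap7* (0.86 against 0.38 for the last). For *Gimap4* with *Gimap9* it was 0.53 with URE LSK replicate 2 and -0.29 without it. Without that library *Gimap1*, *Gimap6* and *Gimap5* had r of 0.77 to 0.96 with each other. *Gimap7* had 0.75 with both *Gimap6* and *Gimap9* and 0.71 with *Gimap1*. *Gimap9* had 0.71 with *Gimap6* and 0.66 with *Gimap1*, and *Gimap3* had 0.66 with *Gimap4*. For *Gimap8* the values with the other members lay between -0.43 and 0.14 there. *Gimap3* and *Gimap4* had at most 9 counts in any GMP library, so their values with group means removed rest partly on few counts.

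The 8 other genes most like the family were ranked by Pearson's r with the mean z-score of the members over 16 libraries, among 15935 genes. They were *Jakmip1* (r = 0.99), *Gbp2* (0.98), *Anxa4* (0.98), *Tnfrsf18* (0.98), *Insl6* (0.97), *Sgce* (0.97), *Pde4b* (0.97) and *Pglyrp2* (0.97). *Gbp2*, an interferon-inducible GTPase, had 130.5 ± 9.58 CPM in WT LSKs and 29.8 ± 3.78 in WT GMPs, and *Pde4b*, a phosphodiesterase of cyclic AMP, had 174 ± 16.1 and 48.1 ± 7.55. *Tnfrsf18*, a receptor of the TNF family, had 53.5 ± 10.4 and 9.04 ± 1.37. Of the members themselves *Gimap6* (0.99) was nearest to this mean and *Gimap9* (0.63) farthest from it.

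The genes around the cluster were tested in the same fits. Within 500 kb on either side lie 21 other protein-coding genes. In WT, 14 of them were tested between GMP and LSK, of which 5 were lower in GMPs and 1 was higher, against 15.8% and 11.5% of all genes. The lower genes were *Zfp467* (log2 fold change -2.88), *AI854703* (-1.86), *Tmem176b* (-0.64), *Tmem176a* (-0.69) and *Gm45021*. *Gm45021* had a mean of 2.57 CPM in LSKs and 0.0107 in GMPs, too few counts for a fold. The higher gene was *Aoc1*, with a mean of 0.924 CPM in GMPs and 0.0326 in LSKs, again too few counts for a fold. In URE mice 4 of 12 tested were lower in GMPs. Between genotypes 0 of 14 neighbours were called in LSKs by edgeR, with 1 at an unadjusted p under 0.05 and 1 called by DESeq2. In GMPs 1 of 12 was called, *Tmem176b*, a transmembrane protein gene, at -0.90 ± 0.16 (adjusted p = 0.00856), opposite in sign to *Gimap9*.

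Interferon-inducible GTPases, another family of GTP-binding proteins of immune cells, were lower in GMPs than in LSKs in 15 of 17 tested in WT and in 12 of 16 in URE, where 15.8% and 12.6% of all genes were. The largest fitted falls in WT were those of *Gbp4* (log2 fold change -5.54, adjusted p = 1.27e-04), *Gbp9* (-4.90), *Gbp6* (-4.26) and *Iigp1* (-3.66). *Gbp4* was at 0.0497 to 0.483 CPM in WT GMPs and *Gbp9* at 0.242 to 1.84, so their values rest on few counts on that side. In LSKs 6 of 17 were lower in URE (3.76% of all genes) and none was higher, among them *Mx1* (-3.36, adjusted p = 0.0354) and *Gbp9* (-2.53, adjusted p = 0.0065). In GMPs 1 of 16 was lower (3.63% of all genes), which was *Mx1* (-2.29, adjusted p = 0.0372).

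Genes of early lymphoid progenitors were lower in URE LSKs in 6 of 12, with *Rag1* at a mean of 2.40 CPM in WT and 0.0401 in URE (adjusted p = 0.0238, too few counts for a fold) and log2 fold changes of -3.97 for *Rag2* (adjusted p = 9.25e-04), -1.98 for *Dntt* (adjusted p = 0.0175) and -1.69 for *Satb1* (adjusted p = 0.00155). Of the T cell markers 4 of 11 tested were lower in URE LSKs (*Thy1*, *Cd5*, *Cd4* and *Cd6*), and of the B cell markers 2 of 6 (*Blnk* and *Cd79b*). The summed level of the early lymphoid list was 624 to 1014 CPM in URE LSKs and 1550.3 to 2478 in WT LSKs, without overlap. The part of this shift in the *Gimap4* values was not tested. In GMPs 4 of 9 early lymphoid genes were lower in URE and 1, *Lax1*, was higher (2.41, adjusted p = 0.002). Between GMPs and LSKs of WT mice 10 of 12 early lymphoid genes and 7 of 10 T cell markers were lower in GMPs, the direction of the Gimap genes.

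Partners known for the family behaved as follows. Of the Atg8 proteins and their conjugation enzymes, to which the *Gimap6* partner *Gabarapl2* belongs, 0 of 14 were called in LSKs by edgeR (1 at an unadjusted p under 0.05, and 0 by DESeq2) and 1 of 14 in GMPs, which was *Atg12* (1.05, adjusted p = 0.0181). Over all genes 4.67% were called higher and 3.63% lower in URE GMPs, and 2.38% and 3.76% in URE LSKs, so these counts and those of the Bcl2 family are near what all genes gave. *Gabarapl2* had 82.4 ± 12.0 CPM in WT LSKs, 98.8 ± 17.3 in URE LSKs, 56.1 ± 6.73 in WT GMPs and 68.2 ± 6.49 in URE GMPs. Of the Bcl2 family, 1 of 15 was higher in URE LSKs (*Bok*, 1.89, adjusted p = 0.00498) and 1 lower (*Bcl2a1d*, at 0.903 ± 0.347 CPM in WT LSKs and at 0 in all 4 URE LSK libraries, adjusted p = 0.00631). In GMPs *Bbc3*, a promoter of apoptosis, was higher in URE (1.67, adjusted p = 0.0333) and *Pmaip1*, which has the same role, was lower (-2.31, adjusted p = 0.00482).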

How the data were processed

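RNA-seq of 16 libraries was used, made by an unstranded low-input protocol (at most 10 ng of RNA). No molecular identifiers were used, and statements on depth therefore concern counting error alone. The authors quantified reads with salmon, summed transcripts to genes with tximport and deposited estimated counts per gene as whole numbers, not normalized. Per the labels the build is GRCm38, and versions are not given in the sources used here. Of 54347 gene identifiers, 54094 matched GENCODE M21, which gave lengths and coordinates. Groups and replicate numbers were taken from the labels.

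All genes were tested with edgeR 4.0.16 (limma 3.58.1, R 4.3.3), using TMM, filterByExpr, the quasi-likelihood test and Benjamini-Hochberg adjustment, each comparison on its own groups. Each SE is the absolute log2 fold change divided by the root of F. The exact permutation tests ran on log2 CPM (prior count 2). The procedure was tested on simulated data. Alternatives were DESeq2 1.42.0, other size factors, filters and thresholds, a joint fit, a replicate block, replicates 1 and 4 or 2 and 3 alone, a covariate of Y-linked transcripts and leaving out each library. The members, gene lists and alternatives were chosen with earlier results of these data known.

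Same-numbered libraries deviated together from their group means (r = 0.24 to 0.71 in 16 pairs of libraries, against -0.59 to 0.40 between differently numbered ones), and from this alone the numbers were taken to pair the samples. What a number marks, and whether LSKs and GMPs of a number come from the same mouse, are not given in the sources used here. No 2 replicates were near-identical (chi-square per degree of freedom at least 32.4). Named beside the members were *Spi1*, up to 4 called genes of a list with the largest changes, defining markers near 0, called neighbours within 500 kb and the 8 genes most like the members. *Gabarapl2* was added after its values were seen, as were uncalled markers that went the other way from their list. Plots were drawn with matplotlib 3.10.9. The results of 2 marker genes are not reported here.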

Additional observations from a re-analysis of the deposited data

Results flagged for a closer look

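A library stood far from the other 3 of its group for 4 of the 32 combinations of member and group, where chance gives about 1 in 20. By the same measure 7.91% of 15935 genes had such a library in URE LSKs and 5.83% to 6.76% in the other groups. In URE LSKs this was replicate 2 each time. *Gimap3* was at 59.7 CPM there and at 6.47 to 12.6 in the others, *Gimap4* at 12.3 and 0.30 to 0.682, and *Gimap9* at 166 and 75.4 to 84.9. In WT LSKs *Gimap4* was at 10.3 CPM in replicate 2 and at 6.93 to 7.01 in the others.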

How the results depend on the processing

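Of the members, the 8 calls between GMPs and LSKs in WT stayed between 7 and 8 and the 6 in URE between 6 and 7 when any library was left out. With a fold above 2 they were 7 in WT, and in replicates 1 and 4 alone 7, where *Gimap9* was lost each time (adjusted p = 0.0552 in the latter), and in replicates 2 and 3 alone 5 in URE, where *Gimap5* was lost (adjusted p = 0.0535). *Gimap9* was called higher in URE GMPs in all alternatives except in replicates 2 and 3 alone, where 0 members were called (1.04, adjusted p = 0.149). The count in GMPs was 2 with DESeq2, with the joint fit and with the replicate block, the second member being *Gimap8* in each. The block changed no other call. In LSKs 1 member was called by DESeq2 (*Gimap3*; no adjusted p was returned for *Gimap4*), in replicates 1 and 4 alone (*Gimap4*, -3.87) and with the block without URE LSK replicate 2 (*Gimap4*, -3.80), and 0 to 1 when a library was left out. For the interaction the block without that library gave 2, and leaving out any library gave 0. That setting was chosen with the data in view. The causes were not tested.

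The sign turned only for members that were not called. In LSKs *Gimap7* was at 0.021 with DESeq2 and with other size factors, 0.032 in the joint fit, 0.14 in replicates 2 and 3 and 0.24 with the Y-linked covariate (-0.85 to 0.28 with a library left out). *Gimap8* was at 0.021 in replicates 2 and 3 and 0.21 with the covariate (-0.25 to 0.20), *Gimap6* at 0.020 in replicates 2 and 3 (-0.41 to 0.071) and *Gimap5* at -0.0059 in replicates 1 and 4 (-0.11 to 0.22). *Gimap9* between URE GMPs and LSKs was at 0.15 in replicates 1 and 4 and 0.18 with the block without URE LSK replicate 2 (-0.29 to 0.16). *Gimap3* in the interaction was at 3.73 in replicates 2 and 3 and 0.55 with the block without that library (-1.12 to 1.13). *Gimap1* ranged from -0.10 to 0.62 in GMPs and from -0.34 to 0.38 in the interaction.

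Over all genes, calls in LSKs went from 930 to 1469 with DESeq2, 1433 with the block, 386 in replicates 2 and 3 and 510 with the covariate (565 to 961 with a library left out). In GMPs they went from 1148 to 1778, 2260, 108 and 630 (715 to 1176), and for the interaction from 194 to 666 with DESeq2, 1047 with the block and 2 in replicates 2 and 3 (84 to 283), and to 730 with the block without URE LSK replicate 2. In replicates 2 and 3 there were 2507 instead of 4037 between WT GMPs and LSKs and 810 instead of 3133 in URE. Counts of *Gimap3* and *Gimap4* in GMPs are too low to compare the genotypes there.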
